A study of Oryza sativa with 2 samples.

Results

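The identifiers described here are the 54 whose names start with OrsaiPp, out of 57343 gene identifiers counted in total RNA of rice seedlings. They were chosen by that prefix, a rule that uses no measured value, though earlier results of these data were known when the series was singled out. Plant mitochondria keep a small genome that encodes a few subunits of the respiratory complexes and of ATP synthase, some ribosomal proteins, proteins that attach haem to cytochrome c and a maturase that helps to splice introns. The other subunits of those complexes are encoded in the nucleus and imported. Plant mitochondrial genomes also carry many open reading frames of unknown function and stretches taken up from the plastid genome, and pieces of both organelle genomes are found in plant nuclear DNA. Reads from such repeated sequence can align to several places, and here they were not counted.

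The plants were Minghui 63, a parent of a hybrid rice, and the libraries form 1 group, so no treatment or genotype is compared. Seeds were soaked for 72 h at 37 °C. Seedlings then grew at 32 °C during a 14 h day and at 28 °C during a 10 h night until they were 2 weeks old. The tissue is labelled as seedling, while the extraction protocol names leaves. RNA was taken at 8:00, and 2 µg of it was freed of ribosomal RNA with a strand-marking plant kit and read as pairs of 150 bp. Library 1 held 18096722 gene counts and library 2 held 18799901. Separate plants are not stated for the libraries, so a difference between them may be technical. A p-value between them is set against counting error only and measures no spread between plants.

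The mitochondrial label was checked against lengths, since 0 identifiers matched the RefSeq gene table by name and no sequence was given. All 54 OrsaiPp lengths were multiples of 3, as coding sequences are. So were all 64 OrsaiCp lengths, so this trait does not set OrsaiPp apart from OrsaiCp. Of the lengths of the MH identifiers, nearly all of which carry a nuclear chromosome number, 74.3% were multiples of 3. The OrsaiPp lengths ran from 225 to 2037 bases with a median of 619.5. Of the 54 lengths, 41 (75.9%) equalled the length of a mitochondrial protein-coding gene in the RefSeq table of japonica rice, and 4 equalled a plastid one. The same held for 6 of 64 lengths of the OrsaiCp identifiers (9.38%), of which 54 equalled a plastid length, and for 4.80% of the MH lengths. The table gives the span of a gene with its introns, so a gene with introns could not match by a spliced length. An equal length does not name any single identifier.

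The OrsaiPp identifiers were mostly above the MH identifiers in level and below the OrsaiCp identifiers. Their summed counts were 516535 in library 1 and 487573 in library 2, which is 2.85% and 2.59% of all gene counts. FPKM, the count per kb of length and per 1000000 gene counts, had a median of 50.6 in library 1 and 49.8 in library 2 for OrsaiPp, with quartiles of 0.190 and 144 in library 1 and 0.224 and 123 in library 2. The OrsaiCp medians were 590 and 568, and those of MH were 0.0372 and 0.0281. Both libraries reached an FPKM of 1 for 37 of 54 OrsaiPp identifiers (68.5%), against 57 of 64 OrsaiCp (89.1%) and 13298 of 57185 MH identifiers (23.3%). At 100 or more there were 18 OrsaiPp identifiers (33.3%), against 42 OrsaiCp (65.6%) and 305 MH (0.533%). Ranked by mean FPKM, 30 of the top 1000 and 6 of the top 100 identifiers of the whole table were OrsaiPp. These comparisons are across identifiers, which are not replicates, and carry no test. Every FPKM shares a divisor in which the OrsaiCp identifiers made up 49.7% and 50.4% of the counts.

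A single identifier, OrsaiPp05, held most of the counts. It had 386739 counts in library 1 and 358415 in library 2 over a length of 1446 bases, an FPKM of 13982 ± 1128 (SD, n = 2). Library 1 had 74.9% of its OrsaiPp counts there (74.75% to 74.99%, the 95% Clopper-Pearson interval) and library 2 had 73.5% (73.39% to 73.63%). These intervals cover counting error only. In the whole table it ranked 2 by counts and 8 by mean FPKM, and it took 2.14% of all gene counts in library 1 and 1.91% in library 2. Its count was 14.6 times that of the next OrsaiPp identifier in library 1 and 13.5 times in library 2. Its length equalled none of the mitochondrial or plastid lengths in the RefSeq table, and 25 MH identifiers have the same length. No source used here says what it encodes.

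Without OrsaiPp05 the sum and the mean of the set were much lower, while its median changed little. The other 53 identifiers held 129796 counts in library 1 and 129158 in library 2, or 0.717% and 0.687% of all gene counts. The mean FPKM of the 53 was 133 in library 1 and 127 in library 2. With OrsaiPp05 included it was 404 and 369. The median FPKM was 49.0 and 49.6 without it. No other OrsaiPp identifier reached an FPKM of 1000.

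Among these 53 the counts were again spread unevenly, though less so. OrsaiPp47, of 1575 bases, had 26408 counts in library 1 and 26454 in library 2, which was 20.3% and 20.5% of what the 53 held. The 5 identifiers with most counts, which were the same in both libraries, held 54.7% of it in each, and the first 10 held 76.1% and 76.6%. Per kb of length, OrsaiPp47 had 16767 counts in library 1 and 16796 in library 2, and OrsaiPp10, of 618 bases, had 15199 and 14332. OrsaiPp40, of 1194 bases, followed with 12831 counts per kb in library 1 and 12493 in library 2. OrsaiPp25, of 783 bases, had 11326 and 11282. These 4 kept the same order in both libraries, and for each pair of neighbours in that order the values of the libraries did not overlap.

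By level the identifiers are described here as a high set, a low set and those at 0. In 34 of the 54, both libraries had 61 or more counts, with a median of 2082 counts per kb in library 1 and 2020 in library 2. Another 8 had at most 34 counts in library 1 and at most 15 in library 2, and their medians were 17.4 and 17.7 counts per kb. The remaining 12 had 0 counts in both libraries. The dividing line between the high and the low set was placed in the gap after the values were seen, so it describes these libraries and supports nothing. Rank order over all 54 identifiers was nearly the same in both libraries (Spearman's rho of FPKM 0.996, across identifiers of the same 2 libraries).

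**Figure D1:**
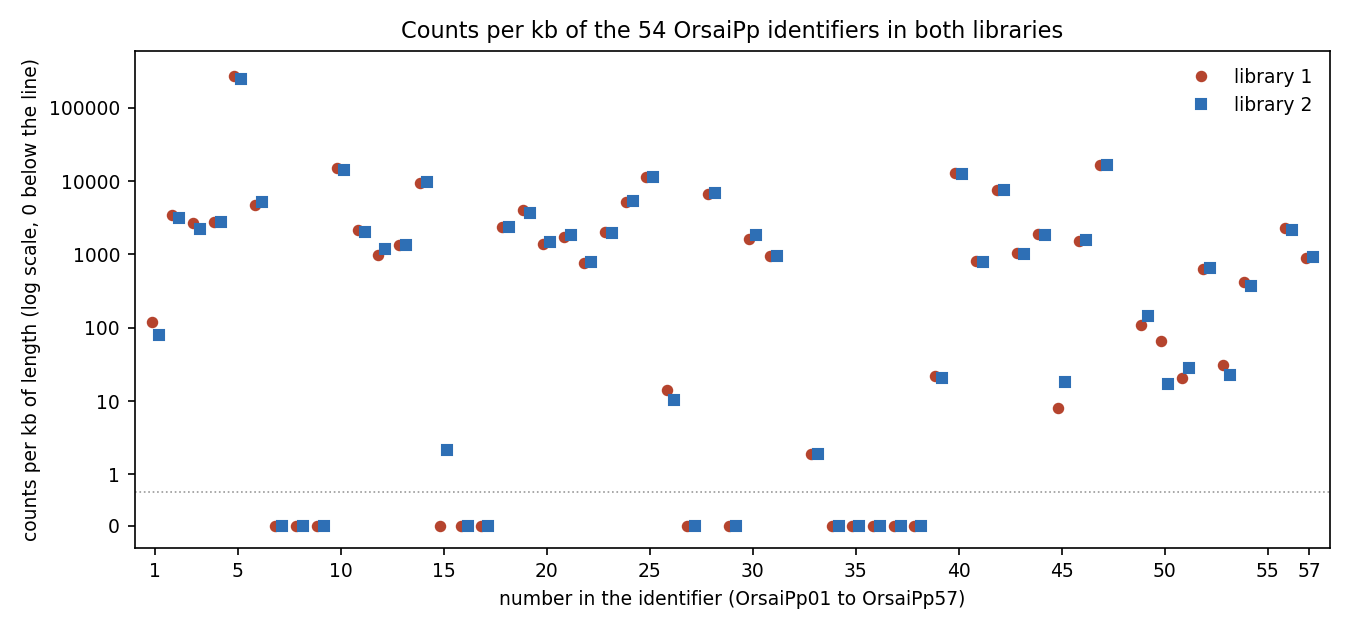
Counts per kb of length (vertical axis, log scale, with 0 below the dotted line) for each OrsaiPp identifier in the order of its number (horizontal axis), with circles for library 1 and squares for library 2. OrsaiPp05 stands more than 10 times above all others, 34 identifiers lie at about 80 counts per kb or more, and 12 lie at 0 in both libraries.

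The 12 identifiers at 0 in both libraries were OrsaiPp07, OrsaiPp08, OrsaiPp09, OrsaiPp16, OrsaiPp17, OrsaiPp27, OrsaiPp29, OrsaiPp34, OrsaiPp35, OrsaiPp36, OrsaiPp37 and OrsaiPp38. They made up 22.2% of the OrsaiPp identifiers, against 0 of 65 OrsaiCp identifiers and 36.2% of the MH identifiers. A count of 0 allows up to 3 counts, which for their lengths of 225 to 1509 bases is an FPKM of up to 0.110 to 0.737 in library 1 and 0.106 to 0.709 in library 2. All of these limits lie far below the OrsaiPp median. The limits hold only for reads with a single alignment. Entries with more than a single alignment, which no identifier received, made up 27.7% and 25.8% of all entries in libraries 1 and 2, and how many of them belong to these 12 was not tested.

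The 5 lowest identifiers above 0 had few counts. OrsaiPp15 had 0 counts in library 1 and 1 in library 2, and OrsaiPp33 had 1 in each. OrsaiPp26 had 7 and 5 counts, OrsaiPp45 had 4 and 9, and OrsaiPp39 had 16 and 15. At such counts the libraries could differ several-fold by counting error alone: the ratio for OrsaiPp26 was 1.43 with a 95% interval of 0.390 to 5.71.

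Grouped by the reference gene whose length they equal, the OrsaiPp identifiers with the length of a named gene had higher median levels than those with the length of an open reading frame, with overlapping ranges. Of the 54, 37 had a length that equals that of exactly 1 mitochondrial symbol in the table, 5 had a length shared by several symbols and 12 had none. The symbol orfX was counted as a named gene, of protein transport. The symbol rpl16, whose length of 558 bases OrsaiPp19 has, is listed as a pseudogene in that table. The 21 with the length of a named gene had a median FPKM of 91.0 in library 1 and 96.7 in library 2, with 3 of them at 0 and none in the low set. The 16 with the length of an open reading frame had medians of 0.963 and 0.732, with 6 at 0 and 6 in the low set. Membership of the low set rests on the line placed after the values were seen. The identifier with the length of rpl5 had 61 counts in library 1, the lowest of the high set there, and 82 in library 2. The classes follow the symbols of the table, so orf25, known in plants as the ATP synthase subunit gene atp4, stayed with the open reading frames. Without the length of orf25 their medians were 0.796 and 0.547, and the highest had 83.1 and 84.9. With it, the ranges ran from 0 to 840 in library 1 and 0 to 762 in library 2 for named genes and from 0 to 148 in library 1 and 0 to 117 in library 2 for open reading frames. No test was run between these groups.

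The complexes of the respiratory chain pass electrons from NADH to oxygen and pump protons, and ATP synthase uses the proton gradient to make ATP. The 7 identifiers with the length of a subunit of these complexes by symbol had a median FPKM of 126 in library 1 and 115 in library 2. OrsaiPp10 has the length of nad6, a membrane subunit of complex I (NADH dehydrogenase), and had an FPKM of 840 in library 1 and 762 in library 2. OrsaiPp40 has the length of cob, the cytochrome b of complex III, with 709 and 664. The identifier with the length of cox3, a subunit of cytochrome c oxidase, had 193 and 165. The one with the length of atp1, the alpha subunit of ATP synthase, had 126 and 115.

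Lengths of core genes also occurred among the identifiers at 0. OrsaiPp34 has the length of atp9, the ring subunit of ATP synthase, at 225 bases. OrsaiPp38 has the length of nad4L, a small membrane subunit of complex I, at 303 bases. A plastid gene listed as OrsajCp007 has that length of 303 bases too. OrsaiPp37, at 282 bases, has the length of rps19, a protein of the small ribosomal subunit, a length that plastid rpl23 and rps19 share. All 3 had 0 counts in both libraries. OrsaiPp08, also at 0, has 468 bases, a length that nad3, a symbol of complex I, and orfB share. The 12 identifiers at 0 had a median length of 507 bases, against 619.5 over all 54, and they include OrsaiPp07 with 1473 bases and OrsaiPp36 with 1509.

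The other classes ranged widely in level. The 9 identifiers with the length of a ribosomal protein gene had a median FPKM of 95.9 in library 1 and 96.8 in library 2, with the highest at 415 and 404 and 1 at 0. The 3 with the length of a cytochrome c maturation gene lay between 35.4 and 119 in library 1 and between 34.9 and 109 in library 2. The identifier with the length of mat-r, the intron maturase, had 44.6 and 42.5. The 5 identifiers whose length several symbols share had medians of 0 and 0.116, with 2 at 0, and the highest of them had 77.0 and 77.6. The 12 lengths that matched no mitochondrial gene had a median of 218 in library 1 and 215 in library 2, the highest of all classes with more than 2 identifiers, and OrsaiPp05 and OrsaiPp47 are among them.

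**Figure D2:**
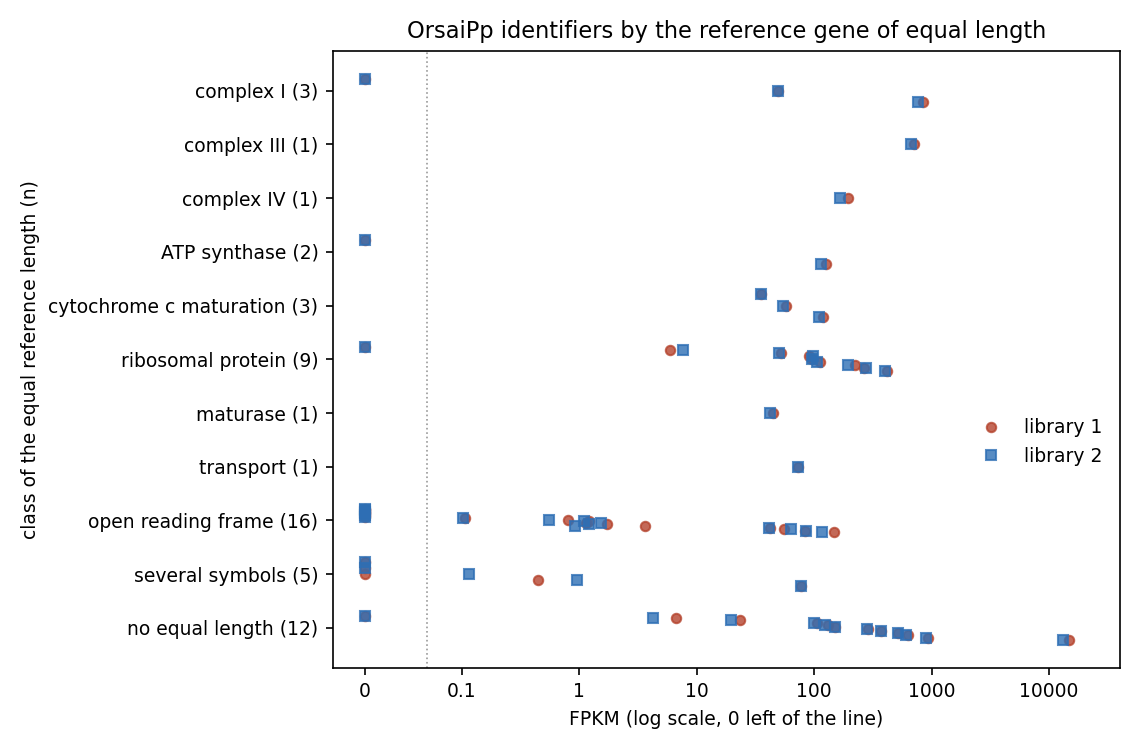
FPKM (horizontal axis, log scale, with 0 left of the dotted line) of the 54 OrsaiPp identifiers, grouped by the class of the RefSeq mitochondrial gene with the same length (vertical axis, number of identifiers in brackets), with circles for library 1 and squares for library 2. Identifiers with the length of an open reading frame lie mostly at 0 or near 1, and those with the length of a named gene mostly above 30, with 3 at 0.

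Equal lengths were looked for because copies of a gene, or plastid-derived sequence, would share reads. The 54 identifiers had 51 different lengths, so 6 of them formed 3 pairs of equal length. OrsaiPp08 and OrsaiPp20, both of 468 bases, had different levels: OrsaiPp08 had 0 counts in both libraries and OrsaiPp20 had 652 in library 1 and 683 in library 2. OrsaiPp15 and OrsaiPp35, both of 459 bases, had at most 1 count. OrsaiPp33 and OrsaiPp50, both of 522 bases, had 1 and 34 counts in library 1 and 1 and 9 in library 2. Of the 6, 2 were at 0 and 3 in the low set, against 12 and 8 of all 54.

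Another 4 OrsaiPp identifiers shared a length with OrsaiCp identifiers, and they did not share a level with them. OrsaiPp19, of 558 bases, had 2238 counts in library 1 and 2049 in library 2, while OrsaiCp25 had 41352 and 40213. Plastid ycf4 has that length in the RefSeq table. OrsaiPp28, of 1014 bases, the length of plastid rpoA, had 6856 and 7085 counts, against 6 in each library for OrsaiCp37. OrsaiPp53, of 483 bases, had 15 and 11 counts, against 216521 and 227493 for OrsaiCp36. OrsaiPp37, at 0, has the same length of 282 bases as 4 OrsaiCp identifiers. These had 1 to 255 counts in library 1 and 4 to 206 in library 2.

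The kinds of shared length had different median levels, with overlapping ranges. The 6 with the length of another OrsaiPp identifier had a median of 0.958 counts per kb in library 1 and 2.05 in library 2. The 4 with the length of an OrsaiCp identifier had medians of 2021 and 1847, and the other 44 had 1017 and 1104. The median of the 4 falls in a gap, between OrsaiPp53 with 31.1 and 22.8 counts per kb and OrsaiPp19 with 4011 and 3672. The highest values in libraries 1 and 2 were 1393 and 1459 among the 6 and 6761 and 6987 among the 4. Among the 44 they were 267454 and 247867, and the lowest value of each kind was 0. At 0 were 2 of the 6, 1 of the 4 and 9 of the 44. A shared length does not show a copy, and each of the 54 lengths was also the length of 15 to 129 MH identifiers. Whether any of these identifiers share sequence was not tested. Spearman's rho between length and counts per kb over all 54 was 0.422, across identifiers of the same libraries and without a test. Among the 34 of the high set alone it was 0.098.

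**Figure D3:**
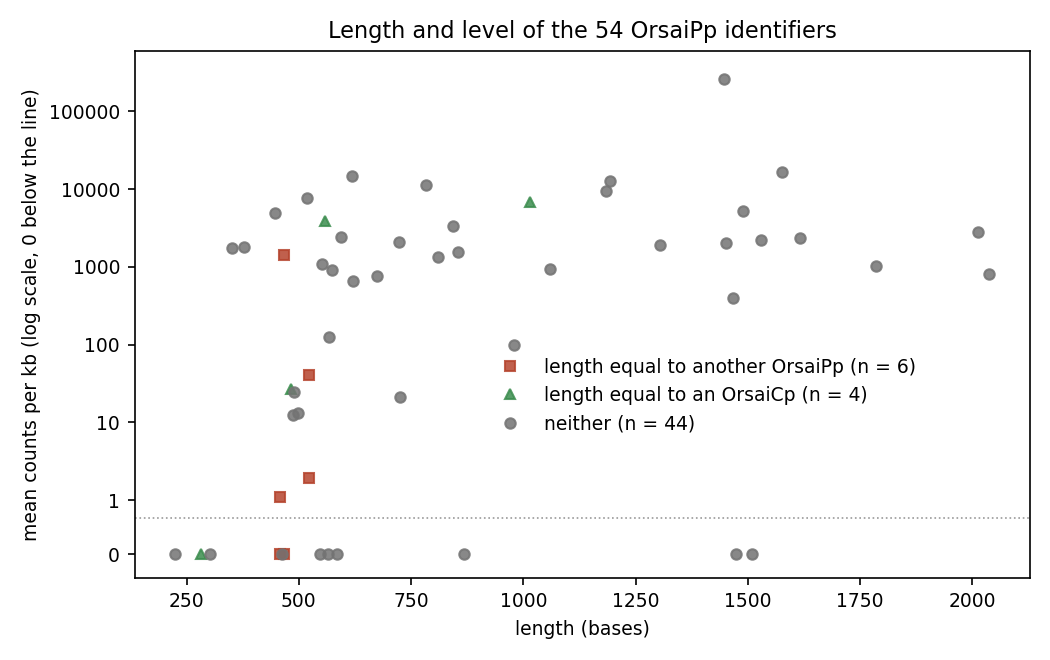
Mean counts per kb of both libraries (vertical axis, log scale, with 0 below the dotted line) against length in bases (horizontal axis) for the 54 OrsaiPp identifiers, marked by whether another OrsaiPp (squares) or an OrsaiCp identifier (triangles) has the same length. Of the 6 squares, 5 lie at or below about 41 counts per kb, while 2 of the 4 triangles lie above 3000.

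Library 1 was set against library 2 to see whether the OrsaiPp identifiers differed by more than counting error. Counts were tested by an exact binomial test, two-sided, with library sizes scaled by the trimmed mean of M-values (TMM) and adjusted by Benjamini-Hochberg over all 19770 identifiers with 10 or more counts in sum. Of the 54 OrsaiPp identifiers, 40 entered it, 12 were at 0 and 2 had fewer counts. An adjusted p under 0.05 was found for 6 of the 40, against 134 of all 19770 (0.678%). All 6 were higher in library 1, where the share over all identifiers was 0.293%, and 0 were higher in library 2, where it was 0.384%. Before adjustment, 13 of the 40 had a p under 0.05 in this test, against 1642 of all 19770. Of these 13, 2 were higher in library 2, against 840 of those 1642. With DESeq2 size factors in place of TMM, 1 of 6 OrsaiPp calls was higher in library 2, while 189 of all 19770 identifiers were called in either direction. The test has more power at higher counts, and 23 of the 40 had a mean of 1000 or more. With that many counts, 5 of the 23 OrsaiPp identifiers were called, against 15 of 43 OrsaiCp, 75 of 1467 MH and 95 of 1533 over all identifiers (6.2%). The test sets counting error as its null. It says that these libraries differ and nothing about conditions.

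Among the 6 called, the differences were small except for 1 identifier with few counts. The log2 ratios of all 40 tested ran from -1.05, for OrsaiPp45 with 4 and 9 counts, to 1.89. OrsaiPp05 was 1.10-fold higher in library 1 than in library 2 (95% interval 1.096 to 1.106, log2 ratio 0.14). Of those 1533 identifiers, 83 (5.41%) differed by at least as much in either direction. OrsaiPp03, with 1595 counts in library 1 and 1310 in library 2, was 1.24-fold higher in library 1 (1.15 to 1.34, adjusted p = 3.47e-06, exact binomial test). OrsaiPp50, with 34 and 9 counts, was 3.85-fold higher in library 1 (1.81 to 9.14, adjusted p = 0.0190, exact binomial test), and it was the only one of the 6 to differ by 1.5-fold or more. The other 3 had log2 ratios of 0.07 to 0.20.

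The OrsaiPp identifiers had a median log2 ratio of library 1 over library 2 of 0.04, against -0.0020 over all 19770 identifiers, with 23 above 0 and 17 below. For their summed counts the log2 ratio was 0.11 (95% interval 0.106 to 0.118), and without OrsaiPp05 it was 0.04 (0.025 to 0.047). The summed counts of the other series had log2 ratios of -0.05 for OrsaiCp and -0.01 for MH, and that of MH was 0.01 with total counts in place of TMM. The ratio of the 53 without OrsaiPp05 lay between 0.007 and 0.062 over the 4 scalings run. OrsaiPr, a series of 6 identifiers, had 690 counts in library 1 and 337 in library 2, a log2 ratio of 1.06, and its part in the ratios of OrsaiPp was not tested. In bulk RNA, fewer cells of a type and less RNA per cell cannot be told apart.

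**Figure D4:**
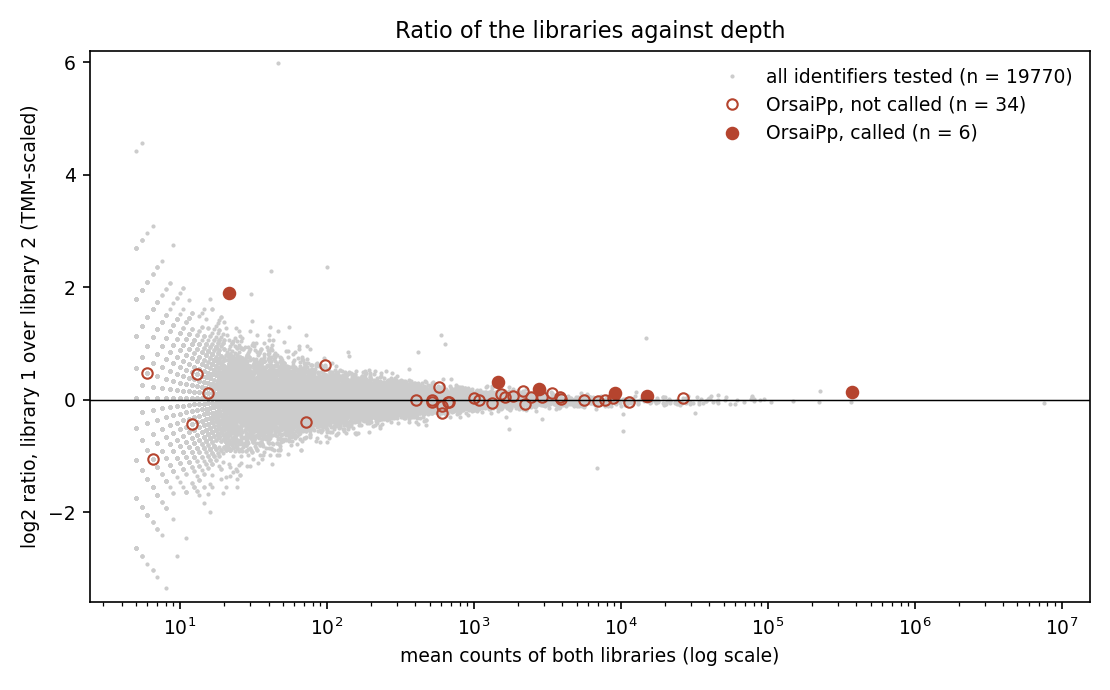
Log2 ratio of library 1 over library 2 after TMM scaling (vertical axis) against mean counts (horizontal axis, log scale) for all 19770 identifiers tested (grey), the 34 OrsaiPp identifiers not called (open circles) and the 6 called (filled circles). All 6 filled circles lie above 0, 5 of them within 0.32 of it, and OrsaiPp50 lies at 1.89 with few counts.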

How the data were processed

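Each of the 2 libraries of 1 group had a table of counts per identifier and a table with length, count and FPKM. The counts are raw whole numbers deposited by the authors. The FPKM values are the authors' own, per the file headers, and equalled the count per kb and per 1000000 gene counts to within 5e-06. Trimmomatic, HISAT2 and HTSeq are named in the submitters' processing notes. The build, annotation, counting strand and way of measuring length are not given in the sources used here. Counting summary lines were left out of the totals.

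Computed here were counts per kb, shares with 95% Clopper-Pearson intervals (counting error only, as there were no molecular identifiers), limits of 3 counts for a count of 0, and the exact binomial test across all genes with a summed count of at least 10, adjusted by Benjamini-Hochberg and called at 0.05. TMM factors were 1.0091 and 0.990984 (edgeR). Log2 ratios used a pseudocount of 0.5. DESeq2 served for an alternative scaling. The test was checked on data simulated with counting error only, which cannot show how it behaves with more spread between libraries. Lengths were compared with RefSeq's table of assembly ASM3414082v1. Tools were scipy 1.17.1 and pandas 2.3.3 in Python 3.11.15, and DESeq2 1.42.0 and edgeR 4.0.16 in R 4.3.3.

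The members, lists and tests were chosen with earlier results of these data known. Named identifiers were OrsaiPp05, the 5 highest and 5 lowest above 0 per kb, those at 0, those with a shared length, and the 2 called with the largest ratio in each direction. Alternatives covered scaling, count filters, pseudocounts, denominators, length tolerance and leaving out either library.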

Additional observations from a re-analysis of the deposited data

Results flagged for a closer look

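Entries with more than a single alignment lay outside every count used for the OrsaiPp identifiers. Set against all entries, that is gene counts plus the summary lines of the counting, they were 27.7% in library 1 and 25.8% in library 2. These are shares of a whole library and not of any identifier. No file says which identifiers they would belong to.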

How the results depend on the processing

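No paired analysis was possible because there is only 1 group. With the identifier of most counts left out of the denominator, the OrsaiPp share of gene counts was 4.64%, and without the OrsaiCp identifiers it was 5.45%, against 2.72% as reported. The OrsaiPp05 share was 66.9% of summed counts per kb, against 74.2% of counts. The median FPKM of 50.2 was 49.3 without OrsaiPp05, 95.1 among identifiers with 10 or more counts and 100.5 with FPKM rescaled to a total without OrsaiCp. The log2 ratio of summed OrsaiPp counts was 0.083 with DESeq2 size factors, 0.14 with total counts, 0.13 with MH totals and 0.036 without OrsaiPp05. Lengths within 3 bases were shared by 28 identifiers, and equal lengths by 6 within OrsaiPp and 4 with OrsaiCp. A single library gave 2.59% or 2.85%, 73.5% or 74.9% and 49.8 or 50.6. With 2 libraries these are the libraries' own values and no check of stability. The median FPKM of identifiers with the length of an open reading frame was 0.848, and 0.672 without the length of orf25, chosen after seeing the data. The 6 calls became 9 with total counts and 8 with MH totals, all higher in library 1. Over all identifiers tested, 0.632% and 0.627% were called with these scalings, against 0.678% as reported. With DESeq2 size factors the OrsaiPp calls were 6, 5 of them shared, with OrsaiPp40 lost and OrsaiPp14 entering as higher in library 2. The share called over all identifiers was then 0.956%. At 100 or more counts the OrsaiPp calls were 6 with 5 shared, since OrsaiPp50 falls under that filter. Over all identifiers 1.22% were called with it. The median log2 ratio lay between 0.01 and 0.06 under the scalings, which were added for it after seeing the data. The median over all identifiers tested moved with the scaling too. With DESeq2 size factors it was -0.031, against 0.006 for OrsaiPp. With total counts it was 0.024 against 0.061, and with MH totals 0.011 against 0.048. All 14 alternatives for OrsaiPp03, OrsaiPp05 and OrsaiPp50 kept direction and call, which is no check of them, since scaling and filters leave a ratio nearly as it was.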

Other observations

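Identifiers at 0 stood next to each other in the numbering. Of the 12, 10 fell into 3 runs of consecutive numbers, OrsaiPp07 to OrsaiPp09, OrsaiPp16 to OrsaiPp17 and OrsaiPp34 to OrsaiPp38, and OrsaiPp27 and OrsaiPp29 stood alone. OrsaiPp15, just before the second run, had 1 count in all, and OrsaiPp33, just before the third, had 2. The numbers run from 1 to 57 with 32, 48 and 55 missing. Whether they follow position in the genome is not stated in the sources used here, and the runs were seen in the data and not tested.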
